A study of Mus musculus with 26 samples.

Results

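The genes described here carry secretory proteins into the endoplasmic reticulum (ER) and attach and trim their N-linked sugars. They were taken from a list of 49 gene symbols, drawn up by function with earlier results of these data known. Shares of these genes set against all genes are therefore no independent finding. Of the 49, 48 were found in the deposited tables of 55416 genes. Tusc3 was not analysed here. The 48 comprised 6 genes of the signal recognition particle and its receptor (Srp9, Srp14, Srp19, Srp68, Srp72, Srprb), 5 of the SEC61 translocon (Sec61a1, Sec61b, Sec61g, Sec62, Sec63), 4 of the TRAP complex (Ssr1, Ssr2, Ssr3, Ssr4), 5 of the signal peptidase (Spcs1, Spcs2, Spcs3, Sec11a, Sec11c), 12 of the assembly of the dolichol-linked oligosaccharide (Dpagt1, Alg1, Alg2, Alg3, Alg5, Alg8, Alg9, Alg12, Alg14, Dpm1, Dpm2, Dpm3), 9 of the oligosaccharyltransferase, OST (Rpn1, Rpn2, Ddost, Dad1, Stt3a, Stt3b, Ostc, Magt1, Krtcap2), and 7 of N-glycan trimming (Mogs, Ganab, Prkcsh, Man1b1, Mgat1, Mgat2, Man2a1). The last role, called trimming below, also holds Mgat1 and Mgat2, which add sugars. All 48 passed the minimum of 1 CPM on average in each group, which left 13697 genes of the tables for tests. CPM is the count scaled to a common library size.

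A protein bound for secretion is recognised on the ribosome by the signal recognition particle, docks at its receptor and is threaded through the SEC61 channel of the ER membrane, beside TRAP and the signal peptidase. In parallel a branched sugar is built on the lipid dolichol, OST transfers it as a whole onto asparagines of the chain, and glucosidases and mannosidases trim it while the protein folds. The epithelium of the choroid plexus (ChP), which produces cerebrospinal fluid, secretes large amounts of protein, transthyretin above all, and so depends on this route.

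RNA was sequenced from the ChP of the 4th ventricle of adult male C57Bl6J mice, 12 with sham surgery (Ctrl) and 12 whose suprachiasmatic nuclei, the master clock, had been destroyed by current (SCNx). After a light-dark cycle, both groups were kept in constant darkness over 2 days, and 1 mouse of each group was taken at each of 12 circadian times (CT), 4 h apart, from CT0 to CT44. In addition, 1 male FoxJ1-ERT2-Cre+/-; Bmal1fl/fl mouse (KO) was taken at ZT7 (day) and 1 at ZT18 (night) of a light-dark cycle. In these adult mice, tamoxifen in the diet activates a Cre that the Foxj1 promoter drives in epithelial cells with motile cilia, inside and outside the ChP. Their ChP was cut by laser from frozen sections and sequenced with another library kit, and no Cre-negative mouse is among these samples.

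Ctrl and SCNx libraries held between 38751201 and 49527655 estimated counts, and the KO libraries 17425207 and 18059227. The 10 markers of ChP epithelium summed to between 141787 and 170070 CPM in Ctrl, between 114424 and 163393 CPM in SCNx and between 82667 and 86936 CPM in KO. The sum of 8 hepatocyte markers was 2034 CPM in Ctrl CT16 and 10510 CPM in SCNx CT0 (group medians 0.894 and 3.24 CPM). That of 6 neuronal markers was 321 CPM in Ctrl CT4 and 401 CPM in SCNx CT32 (group medians 14.6 and 13.3 CPM). The counts of rhythm calls, of calls for its difference and of levels are also given without these pairs of libraries. Arntl (Bmal1), the target in KO, stood at 10.6 CPM at ZT7 and 9.36 CPM at ZT18 in KO and ranged from 2.11 to 40.3 CPM in Ctrl. The targeted allele loses an exon rather than its transcript, so this level does not test the deletion.

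In Ctrl, 11 of the 48 genes had a 24 h rhythm, and the peaks of all 11 fell in the subjective night, between 17.5 h and 21.8 h. They comprised 5 of the 9 OST genes (Magt1, Ostc, Rpn1, Stt3b, Ddost) and 3 of the 5 signal peptidase genes (Spcs2, Spcs3, Sec11c). The other 3 were Srprb, Alg12 and Prkcsh. Of the SEC61 and TRAP genes edgeR called 0 of 5 and 0 of 4, and limma likewise, with 1 and 3 at an unadjusted p under 0.05, which 24.8% of all tested genes reached. Ssr3, with an adjusted p of 0.059, and Sec61b, with 0.062, lay just above the threshold in edgeR. DESeq2, which called 2053 of all 13697 genes rhythmic in Ctrl, called both, together with Ssr2. A rhythm was called where a cosine and a sine of 24 h, fitted to each group, differed from 0 in edgeR's quasi-likelihood test at an adjusted p under 0.05 over all tested genes. By this rule 10.7% of the tested genes were rhythmic in Ctrl, and the share of the called genes that peaked between 12 and 24 h was 52.0% over all genes. Because the 48 were listed with earlier results of these data known, their count and hours are no independent finding. Each p-value rests on the spread of mice around a fitted curve or mean, which also holds any change with time that the fit leaves out. In pieces of tissue a smaller number of cells of a type and less RNA per cell cannot be told apart.

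**Figure D1:**
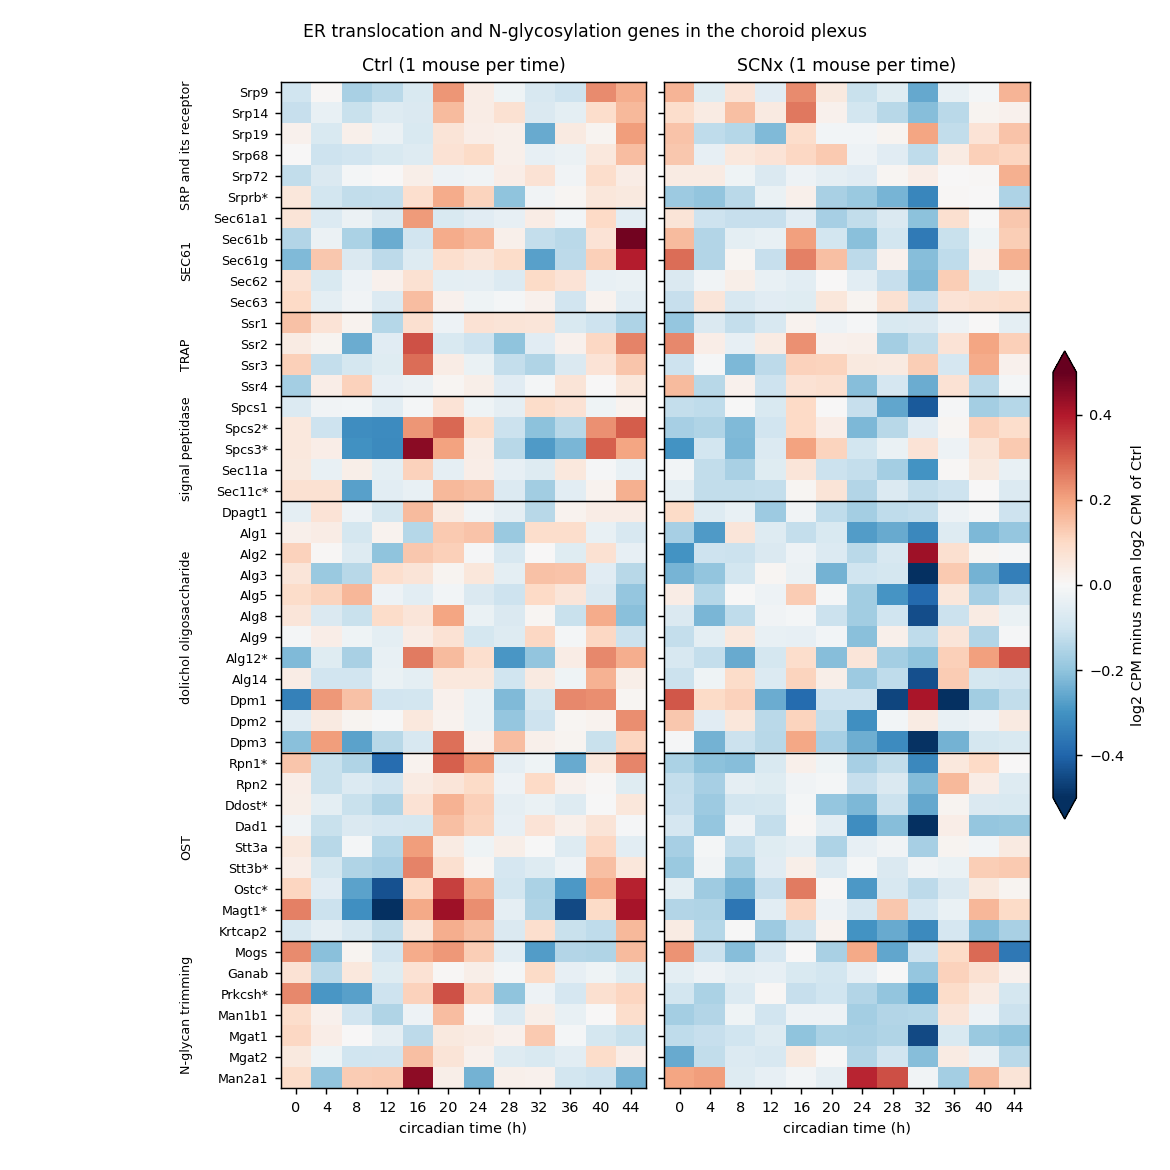
Heat map of the 48 genes (rows, by role; asterisks mark the 11 genes called rhythmic in Ctrl) in the 12 Ctrl and 12 SCNx mice (columns, circadian time in h). The colour is the log2 CPM minus the mean log2 CPM of Ctrl: most rows marked with an asterisk turn red in Ctrl around CT20 and CT44, and the SCNx column at CT32 holds the lowest SCNx value of 27 of the 48 genes.

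Promoters are shown for 4 of the rhythmic genes: 3 whose rhythm differed between the groups (Magt1 and Rpn1 of OST, Spcs2 of the signal peptidase) and 1 of the sugar assembly (Alg12). Each window is the RefSeq sequence of GRCm38.p6 from 250 bases before to 50 bases after the annotated start, read 5′ to 3′ along the gene. Capitals mark matches, searched on both strands, to 6 motifs. These were the E-box (CACGTG) and the D-box (TTATGNAA), which clock factors bind, the heat shock element (GAANNTTCNNGAA), and the core of the UPR element (TGACGTGG) and the ER stress response elements I and II, which factors of the unfolded protein response bind.
Magt1 (chrX:106011753-106012052, minus strand): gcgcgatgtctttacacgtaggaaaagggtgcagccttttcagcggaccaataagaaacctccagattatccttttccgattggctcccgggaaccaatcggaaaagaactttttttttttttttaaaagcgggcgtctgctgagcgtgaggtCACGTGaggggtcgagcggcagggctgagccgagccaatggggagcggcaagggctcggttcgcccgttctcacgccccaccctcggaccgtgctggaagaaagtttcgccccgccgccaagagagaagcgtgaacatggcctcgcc
Rpn1 (chr6:88084223-88084522, plus strand): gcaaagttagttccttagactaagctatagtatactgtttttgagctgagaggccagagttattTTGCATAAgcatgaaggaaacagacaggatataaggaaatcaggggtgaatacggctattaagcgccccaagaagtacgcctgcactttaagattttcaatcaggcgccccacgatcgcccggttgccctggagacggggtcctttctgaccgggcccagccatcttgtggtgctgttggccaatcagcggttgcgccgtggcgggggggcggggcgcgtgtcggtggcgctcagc
Spcs2 (chr7:99858834-99859133, minus strand): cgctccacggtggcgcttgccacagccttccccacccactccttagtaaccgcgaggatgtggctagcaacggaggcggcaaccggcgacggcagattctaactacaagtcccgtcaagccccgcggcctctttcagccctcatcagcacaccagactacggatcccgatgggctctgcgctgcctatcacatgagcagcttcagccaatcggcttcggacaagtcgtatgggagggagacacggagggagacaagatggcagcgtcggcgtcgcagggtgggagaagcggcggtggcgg
Alg12 (chr15:88819269-88819568, minus strand): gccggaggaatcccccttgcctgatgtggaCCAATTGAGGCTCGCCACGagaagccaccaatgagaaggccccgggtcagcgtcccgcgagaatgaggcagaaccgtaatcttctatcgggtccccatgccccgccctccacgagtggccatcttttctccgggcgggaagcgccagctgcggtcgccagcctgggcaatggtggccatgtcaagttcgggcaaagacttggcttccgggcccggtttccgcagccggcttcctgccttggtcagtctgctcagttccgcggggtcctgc
The Magt1 window held an E-box 97 bases before the start, and the Rpn1 window a D-box on the other strand 186 bases before it. The Alg12 window held an ER stress response element I (CCAAT and CCACG with 9 bases between them) 220 bases before the start, and the Spcs2 window none of the 6. Windows were on hand for 39 of the 48 genes, 8 of them rhythmic. An E-box was found for 6 of the 39 genes (15.4%, against 8.09% of 27025 genes with a window). Of these, Magt1 and Prkcsh were called rhythmic, and Sec62, Ssr1, Alg1 and Dpm2 were not. A D-box was found for 5 of the 39 (12.8%, against 3.99%), of which Rpn1 and Srprb were called rhythmic, and Sec61b, Sec63 and Alg1 were not. The ER stress response element I was found for Alg12 (2.56%, against 0.137%), and the element II (ATTGG and CCACG with 1 base between them) for Krtcap2 (2.56%, against 0.0444%). The heat shock element was found for Sec62 (2.56%, against 0.662%), and the UPR element core for 0 (0.714% of all genes). A CCAAT box alone, left in lower case and overlapping the element I, was found for 20 of the 39 (51.3%, against 41.1%). A match describes letters in the window only.

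Among the OST genes the widest curve was that of Magt1, an oxidoreductase subunit of the STT3B form of the enzyme. Its level in Ctrl ran from 68.3 CPM at CT12 over a median of 102 CPM to 134 CPM at CT20, and in SCNx from 77.99 CPM over 97.1 CPM to 112 CPM. In Ctrl the highest mice were those at 20 h of the cycle (134 CPM at CT20, 133 CPM at CT44) and the lowest those at 12 h (68.3 CPM at CT12, 73.2 CPM at CT36), and all SCNx mice lay inside the range of Ctrl. The fitted log2 amplitude, the height of the peak over the mean, was 0.40 ± 0.055 (SE, n = 12), with a peak at 21.4 h, a 1.74-fold span and an adjusted p of 0.00015 in edgeR's test. The SE of an amplitude, here and below, comes from a separate least-squares curve on the log2 CPM of the group's 12 mice. The amplitude itself and its p come from edgeR's fit.

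Ostc, a small subunit that couples the STT3A form to the translocon, ran in Ctrl from 42.2 CPM at CT12 over 58.0 CPM to 74.6 CPM at CT44 and in SCNx from 46.9 CPM over 54.2 CPM to 68.4 CPM. Its amplitude in Ctrl was 0.32 ± 0.044 with a peak at 21.0 h (edgeR adjusted p = 0.000165). Rpn1, ribophorin I, which binds substrates of OST, ran in Ctrl from 201 CPM at CT12 over 261 CPM to 322 CPM at CT20 and in SCNx from 209 CPM over 244 CPM to 281 CPM. For both genes the Ctrl mice at CT12 and CT36 were the lowest of their days and those at CT20 and CT44 the highest, and the SCNx mice again stayed within the range of Ctrl. The amplitude of Rpn1 was 0.24 ± 0.043 with a peak at 21.8 h (edgeR adjusted p = 0.000711).

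The other rhythmic OST genes moved less. Stt3b, the catalytic subunit that also acts after the chain has entered the ER, ranged from 102 to 136 CPM in Ctrl (median 114, highest at CT16). In SCNx it ranged from 101 to 126 CPM (median 113). Its amplitude in Ctrl was 0.14 ± 0.032 with a peak at 18.5 h (edgeR adjusted p = 0.0319). Ddost, a structural subunit, ranged from 87.0 to 109 CPM in Ctrl (median 95.4, highest at CT20) and from 80.9 to 97.4 CPM in SCNx (median 90.1), with an amplitude of 0.11 ± 0.022 and a peak at 21.0 h (edgeR adjusted p = 0.0269). In both the groups overlapped, and for Ddost the SCNx mice reached lower and the Ctrl mice higher than the other group. Stt3a, the catalytic subunit that acts while the chain enters the ER and the paralog of Stt3b, ranged from 124 to 159 CPM in Ctrl and from 122 to 142 CPM in SCNx, and its amplitude of 0.063 at 18.2 h had an adjusted p of 0.483. The difference in rhythm between the paralogs was not tested. Rpn2, Dad1 and Krtcap2 had amplitudes in Ctrl between 0.026 and 0.094 and were not called.

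Of the signal peptidase, which cuts the signal sequence off the chain, Spcs2 had the smallest p of all 48 genes (edgeR adjusted p = 2.5e-05). Its level in Ctrl ran from 71.1 CPM at CT12 over 86.9 CPM to 109 CPM at CT44, and in SCNx from 75.7 CPM at CT24 over 83.9 CPM to 95.8 CPM at CT40. All 4 Ctrl mice taken at 16 h or 20 h of the cycle (103, 108, 103.6 and 109 CPM) stood above the other 8 Ctrl mice and above every SCNx mouse. The amplitude in Ctrl was 0.29 ± 0.034 with a peak at 19.8 h.

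Spcs3, like Spcs2 an accessory subunit, ran in Ctrl from 42.8 CPM at CT12 over 54.8 CPM to 73.1 CPM at CT16, a library rich in hepatocyte transcripts, and in SCNx from 43.4 over 52.4 to 61.4 CPM. Its amplitude was 0.29 ± 0.064 with a peak at 19.5 h (edgeR adjusted p = 0.00552), and it was called without CT16 too. Sec11c, 1 of the 2 catalytic subunits, ran from 27.6 CPM at CT8 over 33.0 CPM to 37.6 CPM at CT44 in Ctrl and from 30.0 over 31.4 to 34.8 CPM in SCNx. For both genes the SCNx mice lay within the range of Ctrl. The amplitude of Sec11c was 0.16 ± 0.029 with a peak at 21.2 h (edgeR adjusted p = 0.00195), and that of its paralog Sec11a, which ranged from 25.98 to 29.4 CPM in Ctrl and from 22.1 to 28.3 CPM in SCNx, was 0.022 (adjusted p = 0.885). Spcs1, the third accessory subunit, had an amplitude of 0.021.

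Outside these 2 enzymes 3 genes were called. Prkcsh encodes the beta subunit of glucosidase II, which removes glucose from the transferred sugar. It ran from 94.4 CPM at CT4 over 118 CPM to 144 CPM at CT20 in Ctrl and from 94.1 over 108 to 123 CPM in SCNx. Its amplitude was 0.22 ± 0.047 with a peak at 19.7 h (edgeR adjusted p = 0.00393). In Ctrl 5 mice (CT0, CT16, CT20, CT24 and CT44) stood above every SCNx mouse. The catalytic partner Ganab had an amplitude of 0.0021 in Ctrl, the smallest of the 48.

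Alg12, the mannosyltransferase that adds 1 of the late mannoses in the ER lumen, ran from 9.61 CPM at CT28 over 11.8 CPM to 14.1 CPM at CT16 in Ctrl and from 9.86 over 11.1 to 14.6 CPM in SCNx, with an amplitude of 0.22 ± 0.040 and the earliest of the called peaks at 17.5 h (edgeR adjusted p = 0.0188). Srprb, the beta subunit that anchors the receptor of the signal recognition particle in the membrane, ran from 46.6 CPM at CT28 over 54.7 CPM to 60.9 CPM at CT20 in Ctrl and from 42.7 over 48.02 to 54.5 CPM in SCNx, with an amplitude of 0.12 ± 0.030 at 19.3 h (edgeR adjusted p = 0.0275). For Alg12 the groups covered nearly the same range, and for Srprb 6 Ctrl mice stood above every SCNx mouse.

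**Figure D2:**
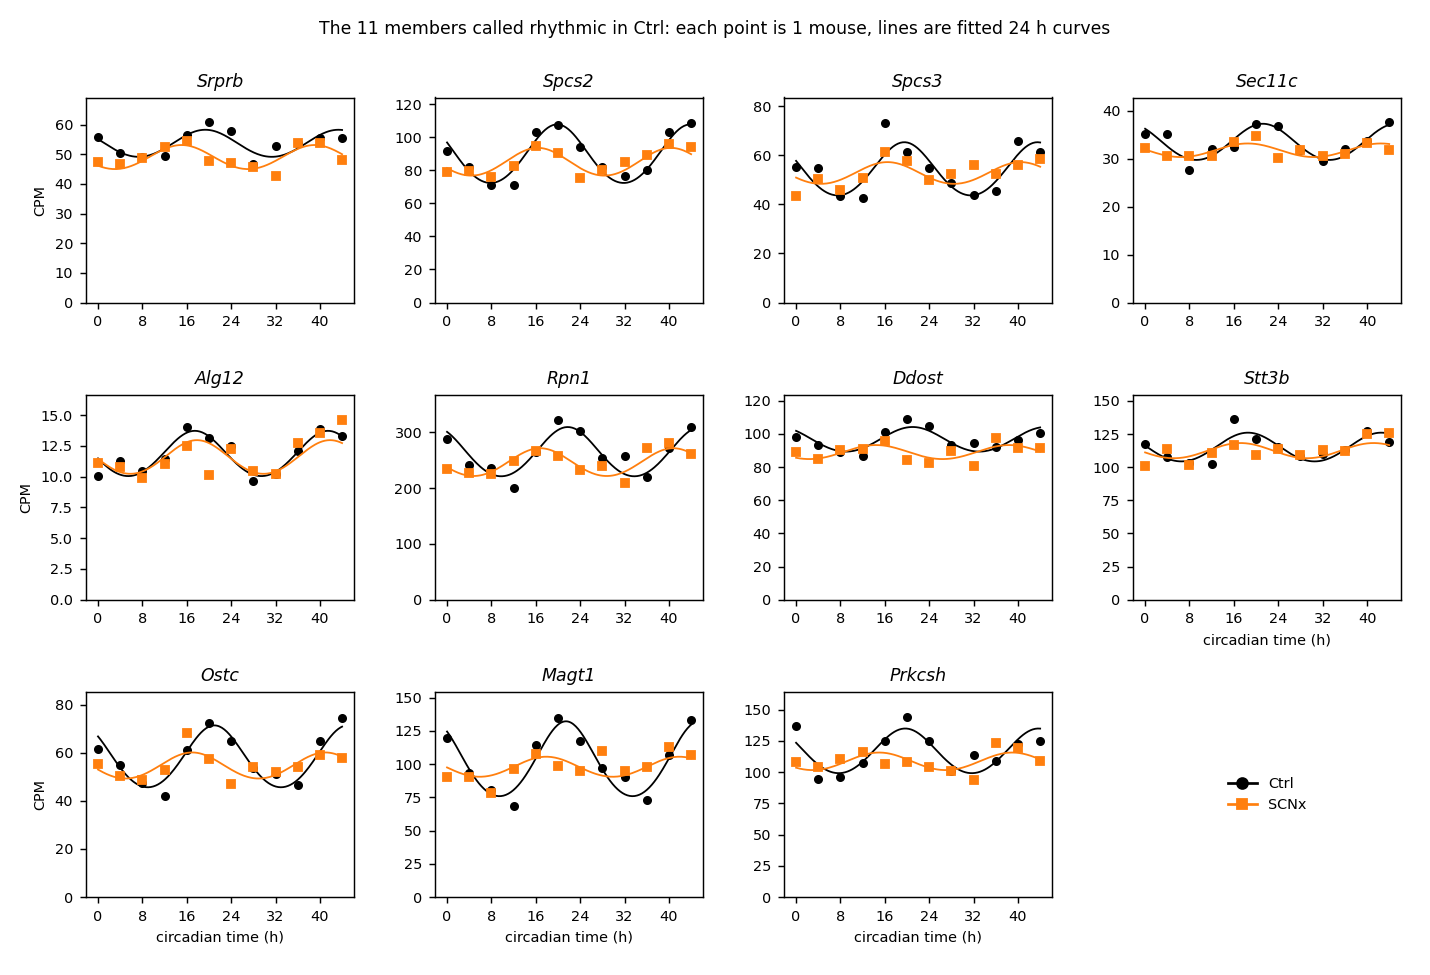
CPM (y axis, from 0) against circadian time in h (x axis) for the 11 genes called rhythmic in Ctrl, with 1 point per mouse in Ctrl (black circles) and SCNx (orange squares) and lines for the fitted 24 h curves. The Ctrl curve of Magt1 spans 1.74-fold and its SCNx curve 1.17-fold, while both curves of Alg12 are alike in height.

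The curves of the 11 genes were also fitted to each day of Ctrl. The 2 peaks of a gene lay between 0.418 and 1.94 h apart (median 0.603 h), and the amplitude was larger on the first day for 9 genes and on the second for 2 (medians 0.28 and 0.21). The 11 were called on a curve over both days, which favours genes with close peaks on the 2 days, so these gaps are no separate test. For Magt1, for example, the amplitude was 0.45 on the first day and 0.36 on the second, and for Prkcsh 0.32 and 0.13. Of the 11, 7 were called in each of the 34 alternative fits (Magt1, Ostc, Rpn1, Spcs2, Spcs3, Sec11c, Prkcsh). The call was lost for Srprb without Ctrl CT8, CT20 or CT28, for Ddost without Ctrl CT8 or CT20, for Stt3b without Ctrl CT8, CT16, CT28 or CT40 and for Alg12 without Ctrl CT28. Without Ctrl CT16 and SCNx CT0 edgeR called 14 of the 48, and 1669 of all 13591 tested genes. Without Ctrl CT4 and SCNx CT32 it called 16, and 2223 of all 13490, against 1459 of 13697 with all mice. The 11 were among the called genes both times.

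The 37 genes that were not called had amplitudes in Ctrl up to 0.21 (Sec61b). Over all 48 genes the fitted curve peaked between 12 and 24 h for 43 in Ctrl and also for 43 in SCNx, against 47.6% and 47.5% of all tested genes. SCNx CT32, a library of the subjective day rich in neuronal transcripts, held the lowest SCNx value of 27 of the 48. Its part in the SCNx peak hours was not tested. The median amplitude of the 48 was 0.086 in Ctrl and 0.084 in SCNx, against 0.11 and 0.091 over all tested genes. The genes with a fitted peak in Ctrl between 0 and 12 h were Ssr1 (2.8 h), Mgat1 (4.00 h), Ganab (5.62 h), Alg5 (7.25 h) and Ssr4 (11.1 h), all uncalled.

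**Figure D3:**
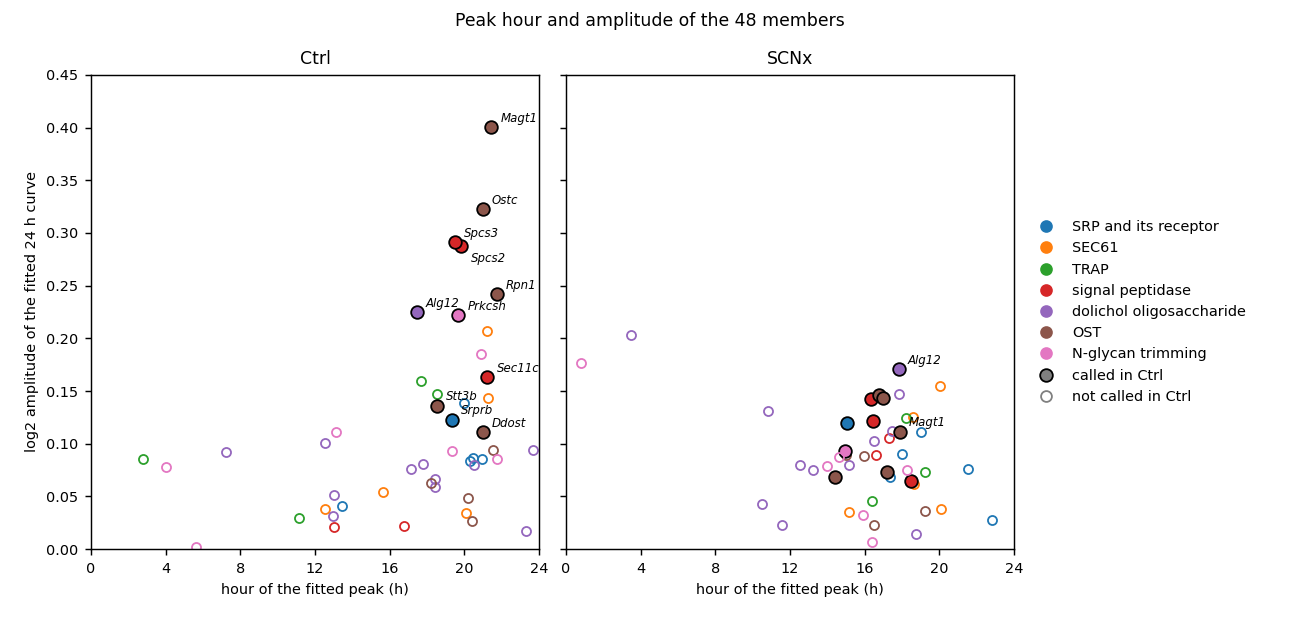
Hour of the fitted peak (x axis, h) and log2 amplitude of the fitted 24 h curve (y axis) of the 48 genes in Ctrl (left) and SCNx (right), coloured by role; filled points are the 11 genes called in Ctrl. Most points of both panels lie right of 12 h. The filled points lie lower in SCNx and, except for Alg12, further left. Their SCNx peaks lie between 14.4 h and 18.5 h, from curves that edgeR did not call in SCNx.

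In SCNx, edgeR called 0 of the 48 genes rhythmic, as it called 0.0% of all tested genes. At an unadjusted p under 0.05 were 11 of the 48 and 14.8% of all genes, and the smallest adjusted p of the 48 was 0.138, for Spcs2. DESeq2 called 3 of the 48 (Rpn1, Spcs2, Srprb) and 432 of all genes, and limma 0. All 11 genes called in Ctrl had a smaller fitted amplitude in SCNx, at a median of 49.6% of that in Ctrl, from 27.8% for Magt1 to 97.3% for Srprb. These 11 were chosen by their amplitude in Ctrl; over all 48 genes the amplitude was larger in Ctrl for 28 (58.3%), against 55.3% of all tested genes. Their fitted peaks came earlier in SCNx for 10 of 11, with Alg12 as the exception, and the median shift was -3.56 h. These SCNx hours come from curves that edgeR did not call, and the shift was not tested. The rhythmic ER chaperones and factors of the unfolded protein response, described below, had fitted SCNx peaks between 14.6 h and 18.1 h.

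Whether the rhythm itself differed between the groups was tested as the difference of the cosine and the sine. This called 4 of the 48 genes in edgeR, against 2.12% of all tested genes, all among those rhythmic in Ctrl: Spcs2 (adjusted p = 0.0258), Rpn1 (0.0370), Magt1 (0.0412) and Ostc (0.0429). The amplitude went from 0.29 in Ctrl to 0.14 ± 0.030 in SCNx for Spcs2, from 0.24 to 0.15 ± 0.030 for Rpn1, from 0.40 to 0.11 ± 0.055 for Magt1 and from 0.32 to 0.14 ± 0.044 for Ostc. Another 11 genes, 15 in all, had an unadjusted p under 0.05, as had 15.1% of all tested genes, and the difference was not called for the other 7 rhythmic genes, with adjusted p from 0.128 (Ddost) to 0.874 (Alg12).

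These 4 calls lay close to the threshold. Without Ctrl CT16 and SCNx CT0, the libraries rich in hepatocyte transcripts, 0 of the 4 remained, and 0 remained without SCNx CT0 or without Ctrl CT44 alone. Leaving out any 1 of Ctrl CT8, CT12, CT20, CT24, CT28 or CT36 or of SCNx CT12, CT20, CT24, CT36, CT40 or CT44 left 1 call. Leaving out Ctrl CT16 or SCNx CT4 or CT16 left 2, and without Ctrl CT32 6 genes were called. Without Ctrl CT4 and SCNx CT32, the libraries rich in neuronal transcripts, and likewise without SCNx CT32 alone, 4 genes were called, but Magt1 and Ostc were lost and Ddost and Prkcsh were added. Spcs2 kept the call in 21 of the 24 fits that left out 1 mouse, Rpn1 in 9, Ostc in 7 and Magt1 in 5. DESeq2 called 7, the 4 and Ddost, Man1b1 and Prkcsh, and 589 of all genes. With circadian time as a block 1 call, Spcs2, remained, and 98 of all genes were called. Over all genes edgeR called 291 with all mice and 214 without Ctrl CT16 and SCNx CT0. Without Ctrl CT4 and SCNx CT32 it called 504 of all genes.

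The level over both days differed little between the groups. In edgeR 0 of the 48 genes and 0.0% of all tested genes were called, and limma called 0 of the 48 too. DESeq2 called 1, Mgat1, and 7 of all genes. The fitted log2 fold change of SCNx over Ctrl was below 0 for 38 genes and above 0 for 10, with a median of -0.060 (43.5% of all tested genes were below 0, median 0.011). It was below 0 for 9 of 9 OST genes, 12 of 12 genes of the sugar assembly, 5 of 5 of the signal peptidase and 6 of 7 of trimming, and above 0 for 5 of 6 genes of the signal recognition particle and its receptor. An unadjusted p under 0.05 was reached by 14 of the 48 in edgeR, all with lower values in SCNx, against 9.37% of all tested genes.

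The smallest p-values belonged to Mgat1, Alg1, Ddost, Dad1 and Srprb, of which Ddost and Srprb were described above. Mgat1, the transferase that starts the complex branches in the Golgi, ran from 70.7 over 78.1 to 84.7 CPM in Ctrl and from 56.6 over 69.5 to 74.0 CPM in SCNx, a log2 fold change of -0.17 ± 0.036 (SE; edgeR adjusted p = 0.266). Alg1, which adds the first mannose to the growing sugar, ran from 19.2 over 22.2 to 24.1 CPM in Ctrl and from 17.5 over 19.3 to 22.8 CPM in SCNx (-0.17 ± 0.046, edgeR adjusted p = 0.366). The SCNx median lay below the lowest Ctrl mouse for Mgat1 and next to it for Alg1. Dad1, a small structural subunit of OST, ran from 102 over 109 to 122 CPM in Ctrl and from 74.2 over 98.9 to 113 CPM in SCNx (-0.15 ± 0.051), Ddost had a log2 fold change of -0.12 ± 0.036 and Srprb of -0.13 ± 0.045, with edgeR adjusted p between 0.377 and 0.422.

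In the other direction the 5 genes with the smallest p were Srp68, Man2a1, Ssr2, Srp72 and Srp14. Srp68, an RNA-binding protein of the particle, ran from 50.2 over 53.4 to 60.04 CPM in Ctrl and from 49.3 over 56.2 to 59.2 CPM in SCNx (0.042 ± 0.035), and Man2a1, a Golgi mannosidase, from 44.9 over 53.9 to 72.2 CPM and from 47.1 over 54.0 to 68.9 CPM (0.078 ± 0.073). Ssr2, a TRAP subunit, ran from 20.4 over 23.9 to 30.2 CPM in Ctrl and from 21.6 over 24.9 to 28.6 CPM in SCNx (0.050 ± 0.061). Srp72 ranged from 90.8 to 105 CPM (median 98.5) and from 94.0 to 112 CPM (median 99.1), and Srp14, which holds back elongation, from 61.4 to 74.5 CPM (median 64.6) and from 57.5 to 80.0 CPM (median 67.6). Their groups overlapped almost fully, with edgeR adjusted p between 0.717 and 0.977, and the fitted values of Srp72 and Srp14 were below 0 in some of the alternative fits.

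SCNx CT32, the library with the most neuronal transcripts, held the lowest SCNx value for 27 of the 48 genes, among them Mgat1, Alg1, Dad1, Ddost and Srprb. Without this mouse 40 genes were below 0 with a median of -0.059, and 11 had an unadjusted p under 0.05 in edgeR, against 38 genes, -0.060 and 14 with it. Over the 24 fits that left out 1 mouse, between 38 and 43 genes were below 0. Without Ctrl CT16 and SCNx CT0, 38 genes were below 0 with a median of -0.047 and 11 had an unadjusted p under 0.05 in edgeR, and without Ctrl CT4 and SCNx CT32 the values were 41 genes, -0.056 and 11.

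**Figure D4:**
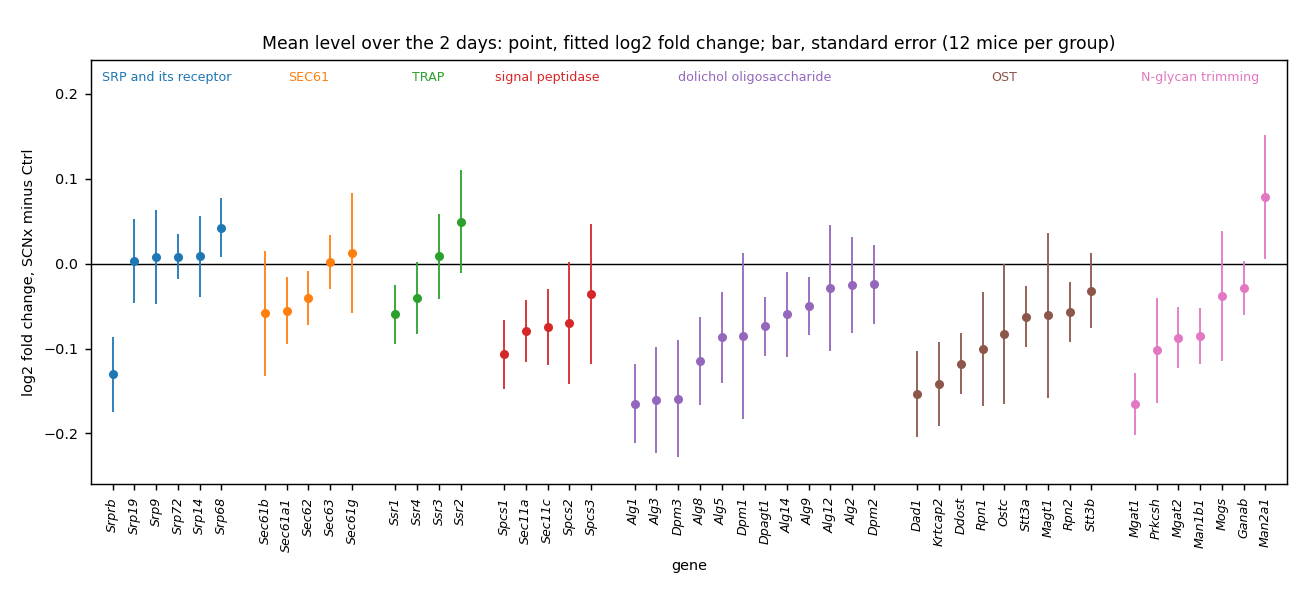
Fitted log2 fold change of the mean level, SCNx minus Ctrl (y axis), of each of the 48 genes (x axis, sorted within its role); bars are standard errors, 12 mice per group. All OST, signal peptidase and sugar assembly genes lie below 0 and none of the 48 passed the adjusted test; the lowest values are -0.17 for Mgat1 and Alg1.

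The groups were also compared by time of the cycle, with 4 mice per group in each window. At 0 h and 4 h, 38 genes were lower and 10 higher in SCNx (median log2 fold change -0.095), at 8 h and 12 h 28 were lower and 20 higher (-0.017), and at 16 h and 20 h 42 were lower and 6 higher (-0.082). Over all tested genes 47.1%, 48.6% and 49.5% were lower. None was called by edgeR in any window (0.0% of all tested genes each), nor by DESeq2 or limma, with 13, 4 and 9 genes at an unadjusted p under 0.05 in edgeR, against 13.5%, 12.6% and 6.33% of all tested genes. DESeq2 called 63, 142 and 13 of all genes. Spcs2 was at 0.15 ± 0.053 in the window of 8 h and 12 h, where Ctrl had its trough, and at -0.15 ± 0.053 and -0.18 ± 0.052 in the others. Spcs3 (0.22 ± 0.068) and Magt1 (0.23 ± 0.10) were also above 0 at 8 h and 12 h, and Man2a1 (0.35 ± 0.11) was at 0 h and 4 h the only gene of the 13 above 0.

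The 2 KO mice could only be described, since each time had 1 mouse. Night minus day was computed as ZT18 minus ZT7 in KO, and as CT16, CT20, CT40 and CT44 minus CT8 and CT32 in Ctrl and SCNx. The libraries Ctrl CT16 and SCNx CT32, rich in hepatocyte and neuronal transcripts, enter these values. SCNx CT32 is 1 of only 2 SCNx day libraries and held the lowest SCNx value of 27 of the 48 genes. A low day value raises night minus day, and the SCNx values without this library were not tested. In Ctrl, 36 of the 48 genes were higher at night (median log2 difference 0.12), in SCNx 43 (0.13), and in KO 13 (-0.22), whereas over all tested genes the medians were 0.0022, 0.012 and 0.0026. Of all tested genes, 50.5% in Ctrl, 52.3% in SCNx and 50.3% in KO were higher at night. Of the 11 genes rhythmic in Ctrl, all 11 were higher at night in Ctrl and in SCNx (medians 0.30 and 0.20) and 3 in KO (-0.23), namely Srprb, Prkcsh and Ddost. The 11 were called on these same Ctrl libraries with peaks in the subjective night, so their higher Ctrl values at night follow from that choice. On plain CPM 44 of the 48 were higher at night in Ctrl (median 0.17), 37 in SCNx (0.057) and 20 in KO (-0.096), while the medians of all genes moved to 0.060, -0.062 and 0.12. Relative to the median of all genes, 35 of the 48 were above it in Ctrl, 43 in SCNx and 13 in KO with either scaling.

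Magt1 stood at 65.5 plain CPM at ZT7 and 55.4 at ZT18 in KO, and its night minus day was 0.51 in Ctrl, 0.31 in SCNx and -0.36 in KO. Ostc stood at 39.8 and 26.6 plain CPM in KO, with TMM-scaled differences of 0.47, 0.26 and -0.70. The KO difference was lowest for Srp19 (-0.84), Sec61g (-0.80) and Ssr4 (-0.78), small subunits of their complexes, and highest for Dpagt1 (0.62), which rests on 58 and 101 counts, and Mogs (0.52), glucosidase I. In the KO libraries mitochondrial transcripts took 21.8% to 25.1% of counts, against 3.92% to 8.77% in Ctrl, and neuronal markers summed to 238 and 305 CPM. Their part in these differences was not tested. The paper reports a lower average RNA integrity for the frozen KO samples, whose mice were also older, given tamoxifen and kept at another institute. These factors, genotype, library kit, dissection and light cycle cannot be told apart.

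**Figure D5:**
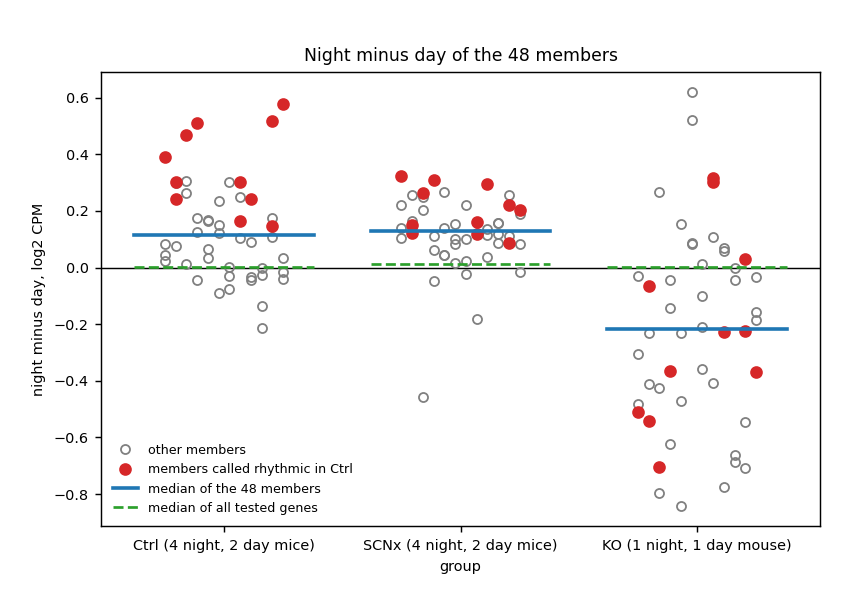
Night minus day in log2 CPM (y axis) of the 48 genes in Ctrl, SCNx and KO; red points are the 11 genes called rhythmic in Ctrl, blue lines the median of the 48 and dashed green lines the median of all tested genes. The blue line lies at 0.12 in Ctrl, 0.13 in SCNx and -0.22 in KO, where each time is 1 mouse.

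Further genes of the same pathways were counted in the same fits. Of 32 tested genes for translocation and membrane insertion that are not among the 48, 3 were rhythmic in Ctrl, and of 43 genes for N-glycan synthesis and processing 5, shares near the 10.7% of all tested genes. The 3 were Tram1, a membrane protein beside the SEC61 channel (amplitude 0.17, peak 20.2 h), Hyou1, an ER chaperone (0.72, 20.0 h), and Emc8, a subunit of the ER membrane complex (0.21, 23.5 h). Among the 5 were Nus1, for dolichol synthesis (0.24, 19.7 h), Uap1, for the sugar donor UDP-GlcNAc (0.19, 19.2 h), Pmm1, a phosphomannomutase (0.22, 5.55 h), and Man1c1, a Golgi mannosidase (0.22, 6.03 h). Of the 5, 2 peaked between 12 and 24 h and 3 between 0 and 12 h, where none of the 11 peaked. The rhythm differed between the groups for Emc8 (edgeR adjusted p = 0.0144) and Man1c1 (0.0369).

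ER chaperones and factors of the unfolded protein response had wider curves. Of 10 such genes, 8 were rhythmic in Ctrl, against 10.7% of all tested genes, with peaks between 19.5 h and 21.7 h, within the range of the 11. The median amplitude of the 10 was 0.55 against 0.086 for the 48. The 10 were chosen with earlier results of these data known, so their count, hours and amplitude are no independent finding. Hspa5 (BiP), the main ER chaperone, ran from 740 over 1470 to 2169 CPM in Ctrl and from 859 over 1394 to 2131 CPM in SCNx, and Xbp1, whose spliced form drives many ER genes, from 90.8 over 134 to 212 CPM and from 115 over 153 to 192 CPM. The rhythm differed between the groups for 5 of the 10 in edgeR, against 2.12% of all tested genes.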

How the data were processed

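Poly(A) RNA was sequenced from 24 ChP samples (12 Ctrl, 12 SCNx) and, with a low-input total RNA kit, from 2 KO samples. The authors deposited estimated counts per gene for both tables, not normalized; the submitters' processing notes name STAR, Salmon 1.9.0, StringTie 2.2.1, SAMtools 1.16.1 and cutadapt 3.4, and the study's methods name GRCm39. Salmon divides reads that several transcripts could have given, so counts of close paralogs are estimates.

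The estimated counts were rounded and scaled by TMM, and 13697 of 55416 genes passed a minimum mean of 1 CPM in Ctrl and in SCNx. The quasi-likelihood F test of edgeR 4.0.16 (R 4.3.3) with Benjamini-Hochberg adjustment over these genes gave the rhythms, levels and windows of time, at a threshold of 0.05. Log2 CPM of the KO comparison used a prior count of 1, and KO was scaled apart. DESeq2 1.42.0, limma 3.58.1, other filters, a block for circadian time, a term for the second day and fits without single mice were the alternatives. The fit was tested on simulated data of 13697 genes, of which a small random part carried a rhythm, in Ctrl only. A rhythm of log2 amplitude 0.3 was found in Ctrl for 45% of the genes that carried it and one of 0.15 for 3%. A difference of the rhythm of 0.3 was found for 19.5%. Each Ctrl and SCNx library held at least 38751201 estimated counts and each KO library at least 17425207.

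The 49 genes and the further lists were chosen with earlier results of these data known. Values were given for every gene called in a test of the rhythm or its difference, for the 5 leading genes by p, higher and lower, in the level test, and for paralog pairs; Stt3a and Sec11a were shown as paralogs. Ganab, Ssr1, Ssr3, Ssr4, Mgat1, Alg5 and Sec61b for the rhythm, the named KO extremes, and Hspa5 and Xbp1 were named after their values were seen. Of the further lists, 1 gene is not reported here. Promoters came from RefSeq (GRCm38.p6), matched by symbol, and share no coordinates with the counts. Tables were handled in Python 3.11.15 with numpy 2.4.6 and pandas 2.3.3, and figures drawn with matplotlib 3.10.9.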

Additional observations from a re-analysis of the deposited data

Results flagged for a closer look

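The 24 h rhythm differed between Ctrl and SCNx by a test of the difference itself for 4 of the 48 genes, with edgeR adjusted p-values of 0.0258 for Spcs2, 0.0370 for Rpn1, 0.0412 for Magt1 and 0.0429 for Ostc. In all 4 the fitted amplitude was larger in Ctrl. The calls were lost for all 4 without SCNx CT0 or Ctrl CT44.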

How the results depend on the processing

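In Ctrl, the count of rhythmic genes stayed within 1.5 times the 11 in 32 of 34 alternatives. It was 17 with DESeq2 (2053 of all 13697 genes) and 7 with no filter on low counts (1116 of all 40287). Without 1 mouse it was from 8 to 16, and over all genes from 918 to 2249. In SCNx the count was 3 with DESeq2 (432 of all genes) and 1 with no filter (1384 of all genes), and 0 without any 1 mouse. The count of genes whose rhythm differed was 7 with DESeq2 (589 of all genes) and 1 with circadian time as a block (98 of all genes). It was 0 without Ctrl CT16 and SCNx CT0 together (214 of all genes). Without 1 mouse it was from 0 to 6, and over all genes from 163 to 466. For the level, DESeq2 called 1 gene and the other 33 alternatives 0, and no alternative called any of the 48 in a window of time. Ctrl and SCNx mice of the same hour share only that hour: over the tested genes, the deviations of these 12 pairs from their group means correlated between -0.44 and 0.33, above 0.1 for 5 pairs, and 1 Ctrl mouse correlated best with the SCNx mouse of its own hour. The block left the counts for levels and windows at 0. The log2 fold change turned below 0 for Srp72 with no filter (-0.0042) and without Ctrl CT4 and SCNx CT32 (-0.0043), with values from -0.0081 to 0.015 without 1 mouse, and for Srp14 with no filter (-0.0025) and without Ctrl CT16 and SCNx CT0 (-0.0053), with values from -0.017 to 0.024 without 1 mouse. The causes of these changes were not tested. With no filter more genes enter the adjustment of p-values. Each circadian time has 1 mouse per group, so that the spread at a single hour was not measured, and the simulated data show that most rhythms of log2 amplitude 0.15, which is above the median of the 48 genes, would be missed.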
